A study of Sus scrofa with 9 samples.

Results

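The miR-17-92 cluster and its paralogs were followed in PGCs, the somatic follicle cells that surround and nourish the oocyte. Members were all entries whose names carry miR-17, miR-18a, miR-18b, miR-19a, miR-19b, miR-20a, miR-20b, miR-25, miR-92a, miR-92b, miR-93, miR-106a, miR-106b or miR-363, with both hairpin arms and every length variant. They numbered 32 of 1345 entries in the table, and 29 of 1283 distinct sequences. The PGCs were primary cells from Landrace x Yorkshire crossbred sows, grown with FBS and exposed for 12 h to no H2O2 (CON), 100 μM H2O2 (LOS) or 300 μM H2O2 (MOS), with 3 small-RNA libraries per group. A library is named by its group and replicate number, as in MOS3. The value of each entry in each library was a normalized count made by the authors. The labels do not say whether the libraries of a group came from separate animals or cultures, so a p-value here reflects only variation among the libraries sequenced, which may be technical. The comparisons ask how the members differ after a mild and a stronger oxidative exposure.

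The miR-17-92 cluster is a polycistron: one primary transcript is cut by Drosha and Dicer into several mature miRNAs. In humans and mice it is driven by MYC and E2F factors, promotes proliferation and survival, and restrains the pro-apoptotic factor BIM. The miR-106a-363 and miR-106b-25 clusters are paralogs, and the latter lies in an intron of MCM7 in humans and mice. A mature miRNA finds its targets mainly through its seed, bases 2 to 8 from the 5′ end, so members with the same seed share many predicted targets whatever cluster encodes them.

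In the RefSeq annotation of Sscrofa11.1, MIR17, MIR18A, MIR19A, MIR20A, MIR19B-1 and MIR92A-1 were neighbors in that order, with GPC5 after MIR92A-1. MIR363-1, MIR92A-2, MIR19B-2, MIR20B-1, MIR18B and MIR106A also followed each other, with CCDC160 after MIR106A, and MIR92B lay next to MUC1. Mature miR-19b and miR-92a can therefore come from either locus, and the table cannot separate the sources.

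The mature sequences below are those listed in the deposited table, and they are shown because the results are grouped by seed. Letters are DNA, and capitals mark the seed. The prefix of a name is the species of the matched reference, L+ or R+ marks added and L- or R- missing bases at the 5′ (L) or 3′ (R) end, and ss marks a substitution.
The miR-17 seed, AAAGTGC, was shared by 8 sequences, of which 1 entry per miRNA is shown.
ssc-miR-17-5p: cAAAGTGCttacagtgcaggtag
ssc-miR-20a_R+1: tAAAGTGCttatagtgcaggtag
ssc-miR-20b: cAAAGTGCtcacagtgcaggtag
age-miR-93_L+1: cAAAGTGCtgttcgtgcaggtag
bta-miR-106b_R+1: tAAAGTGCtgacagtgcagata
The miR-18 seed, AAGGTGC, was shared by 2 sequences.
ssc-miR-18a_R+1: tAAGGTGCatctagtgcagatag
ssc-miR-18b_R-3: tAAGGTGCatctagtgcagt
The miR-19 seed, GTGCAAA, was shared by 2 sequences.
ssc-miR-19b: tGTGCAAAtccatgcaaaactga
ssc-miR-19a: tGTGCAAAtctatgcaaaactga
The miR-92 seed, ATTGCAC, was shared by 7 sequences.
ssc-miR-92a: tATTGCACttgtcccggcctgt
bta-miR-25: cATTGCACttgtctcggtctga
bta-miR-92b: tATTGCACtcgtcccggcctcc
ssc-miR-92b-3p_R-2: tATTGCACtcgtcccggcct
ssc-miR-363_R-1: aATTGCACggtatccatctgta
The other 10 sequences were passenger strands, the less abundant arms, of which the arm of miR-20a is shown because it changed.
mmu-miR-20a-3p_R+1_1ss10CT: aCTGCATTatgagcacttaaagt

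Counted from the 5′ end, miR-19b and miR-19a differed by a single base, C11T, outside the seed. miR-17-5p and miR-20b differed by T10C, and miR-17-5p and miR-20a by C1T and C12T. miR-92a and bta-miR-92b differed by T10C, G21C and T22C. ssc-miR-92b-3p_R-2 matched the first 20 bases of bta-miR-92b and lacked its last 2, so it is a shorter form of the same miRNA. An entry named for miR-106a, ssc-miR-106a_R-1_1ss1AC, had the sequence and all values of ssc-miR-17-5p, so miR-106a and miR-17-5p could not be told apart and were counted once.

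Of the 29 distinct sequences, 24 reached a value of 10 in 3 or more libraries and were tested, and the highest value of any of the other 5 was 12.5. Normalized totals lay between 5578704 and 6084944 in CON, between 5701572 and 6098582 in LOS, and between 4967112 and 5117859 in MOS. Values under 100 were mostly whole multiples of a small step in each library (85.9 to 100% of them, within 0.01 of a step), but the smallest value was 1.33 to 10 steps, so a step need not be 1 read. Whether reads were divided between near-identical entries was not tested, and no counting interval is given. Summed miR-21, abundant in granulosa cells, lay between 2267710 and 2834220 in CON, between 2559110 and 2833070 in LOS, and between 1754450 and 1957420 in MOS. For ovarian miR-202 the ranges were 2984 to 3652, 3688 to 3992 and 1203 to 1791 in the same order. The whole granulosa list did not share this direction: of 18 tested sequences, 1 was called higher and 3 lower in MOS against CON, 9 had positive and 9 negative differences, and the median was 0.02. hsa-miR-21-3p_1ss6CG had a difference of 0.90 and ssc-miR-202-3p_R+2 of 0.23. Leukocyte miRNAs (miR-142, miR-223 and miR-150) gave 2460 to 2678, 2389 to 2821 and 1005 to 2098. Of these 4 sequences, 1 was called higher and 2 lower in MOS against CON, with ssc-miR-150 at 1.01. Erythroid miRNAs (miR-451, miR-144 and miR-486) gave 251 to 323, 254 to 285 and 294 to 775. Endothelial miR-126 gave 3181 to 3586, 3123 to 3362 and 2382 to 3559. The stroma and theca list (miR-143, miR-145, miR-199a, miR-199b and miR-214) gave 363181 to 399643, 352571 to 376849 and 235709 to 420438. No list summed to 0 in any library. The summed range of the leukocyte list in MOS lay below those in CON and LOS, the other lists of other cells overlapped with CON, and their part in the results was not tested. In such bulk libraries fewer cells of a type and less miRNA per cell cannot be told apart.

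MOS3 stood apart among the members and is named before the results for that reason. It had the lowest value of the 3 MOS libraries in 20 of the 24 tested members (83.3%) and the highest in 0, whereas over all 713 tested sequences it was lowest in 36.5% and highest in 39.4%. Above the CON mean were 16 members in MOS1, 15 in MOS2 and 2 in MOS3. The median coefficient of variation of the members was 10.7% in CON, 8.69% in LOS and 29.3% in MOS. Member differences of MOS from CON are therefore given with and without MOS3. The marker lists are given with all libraries, and the arm ratios by library. MOS3 was picked out from the members' own values, so calls made without it are descriptions and no separate test.

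**Figure D1:**
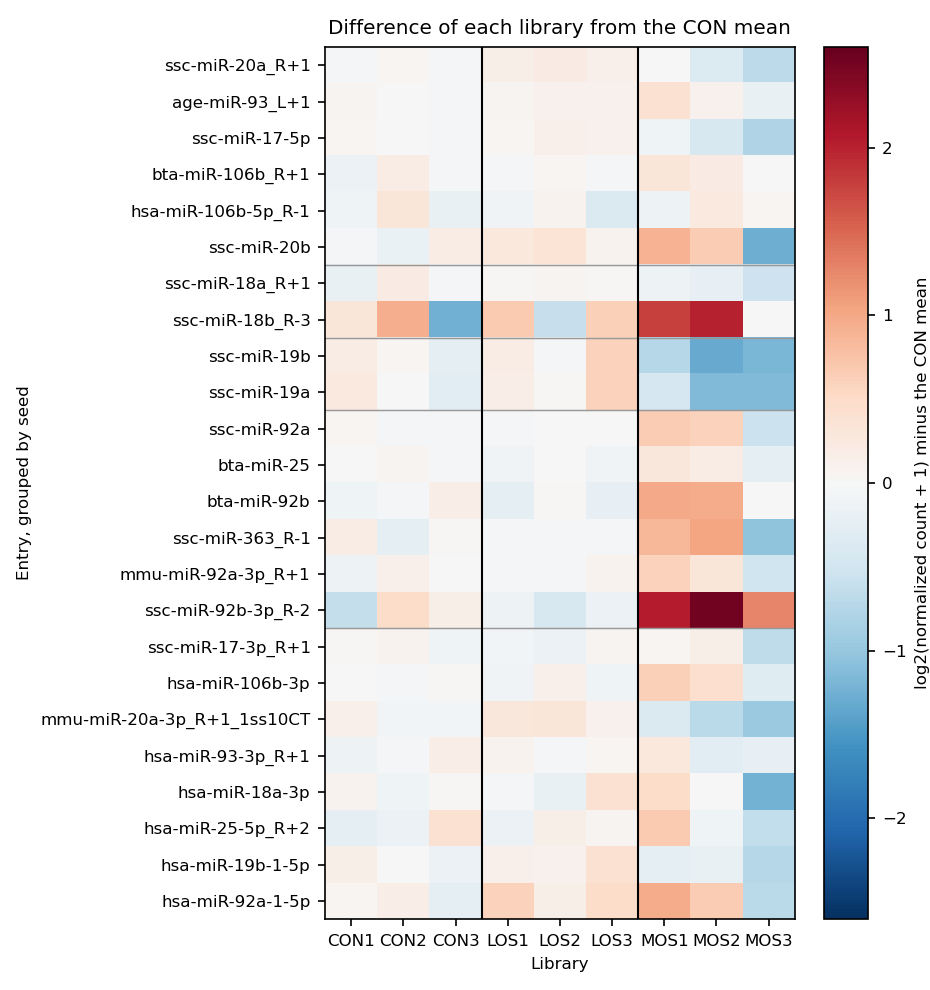
Difference of each library (columns) from the CON mean for the 24 tested members (rows, grouped by seed with gray lines between groups), as log2 of the normalized count plus 1. The LOS libraries are pale, the miR-19 rows are blue in all 3 MOS libraries, and the miR-92 rows are red in MOS1 and MOS2 but mostly not in MOS3.

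At 100 μM H2O2 none of the members passed the test. The number called by limma at an adjusted p under 0.05 was 0 higher and 0 lower, and 0 members had an unadjusted p under 0.05. Among all 757 tested entries, 2.51% were called higher and 0.396% lower. The members' log2 differences of LOS from CON ran from -0.23 for ssc-miR-92b-3p_R-2 to 0.41 for hsa-miR-92a-1-5p, with a median of 0.04. In ssc-miR-17-5p, ssc-miR-20a_R+1 and age-miR-93_L+1 every LOS library lay above every CON library, with differences of 0.10, 0.17 and 0.10. The other tested members overlapped. The share of all entries lying apart was not counted. The most abundant member, ssc-miR-92a, had normalized counts of 19039, 18115 and 18155 in CON and 17800, 18575 and 18361 in LOS, and its log2 difference was -0.01 with an SE of 0.27. That SE came from a spread shared by all groups, so it held the wider spread of the MOS libraries. The members together made up 1.14 to 1.29% of the library total in CON and 1.23 to 1.27% in LOS.

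At 300 μM H2O2 both miR-19 members fell, the passenger strand of miR-20a fell, and a short form of miR-92b rose. These were the only calls of MOS against CON among the members with all libraries, 1 higher and 3 lower of 24. Among all tested entries 20.2% were called higher and 9.11% lower. The members' median log2 difference was 0.07, and that of all entries was 0.07. Between doses, MOS against LOS, 2 members were called higher and 5 lower, beside 18.9% and 10.8% of all entries.

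**Figure D2:**
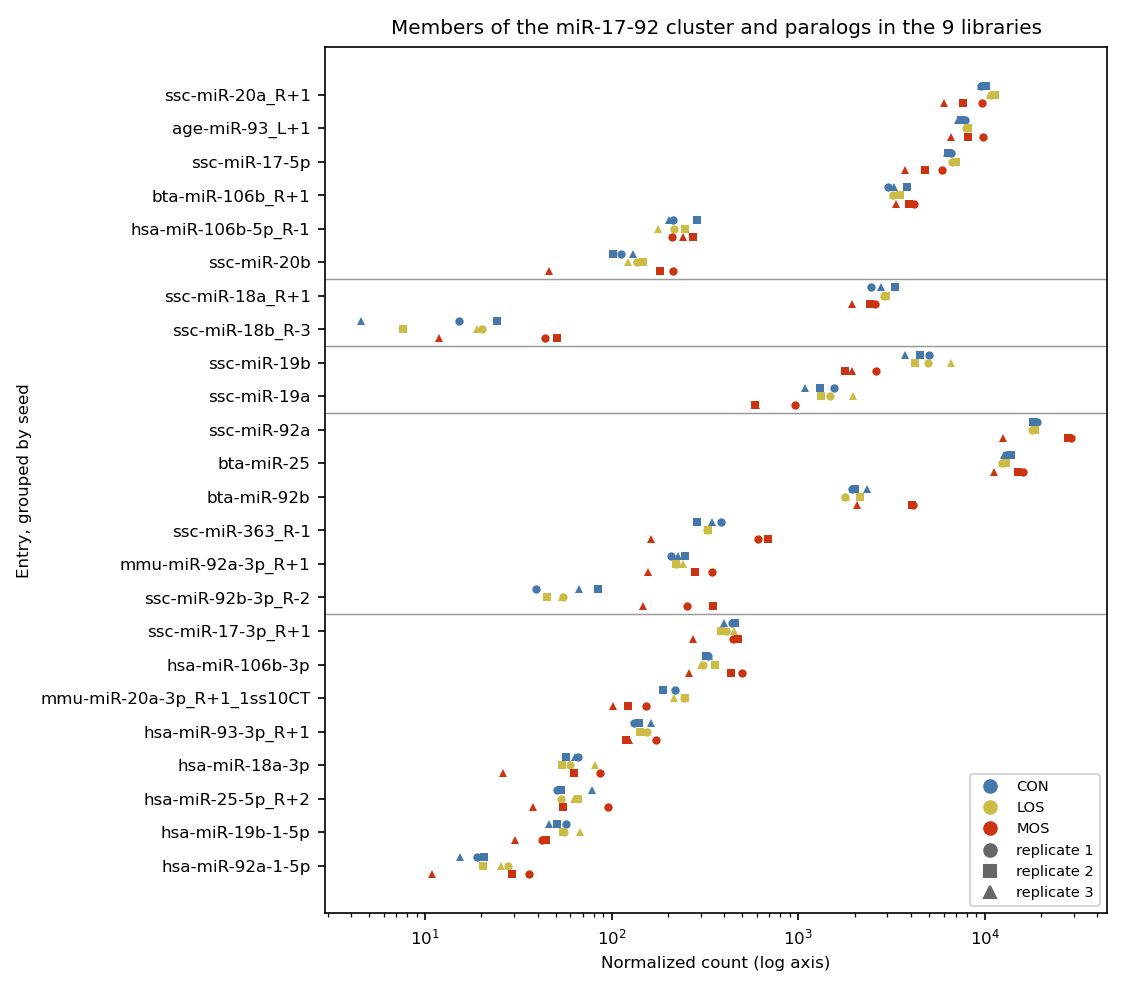
Normalized counts (log axis) of the 24 tested members (rows, grouped by seed) in each library, colored by group and shaped by replicate number. The 3 MOS points of miR-19a and miR-19b lie below all CON and LOS points, and those of ssc-miR-92b-3p_R-2 lie above them.

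miR-19b and miR-19a are known in mice as the main growth-promoting members of the cluster. ssc-miR-19b had normalized counts of 5011, 4506 and 3709 in CON, 4972, 4211 and 6615 in LOS, and 2622, 1772 and 1929 in MOS. Every MOS library lay below every CON and LOS library. The log2 difference of MOS from CON was -1.07 with an SE of 0.20 (adjusted p = 0.00303), and that of MOS from LOS was -1.32 (adjusted p = 0.00124). Without MOS3 the MOS to CON difference was -1.02 (adjusted p = 0.00695). The call against CON held in all 19 alternatives that keep single entries, with adjusted p from 0.00208 to 0.0189.

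ssc-miR-19a had 1559, 1305 and 1083 in CON, 1474, 1327 and 1969 in LOS, and 964, 583 and 589 in MOS. The MOS libraries again lay below all others, and MOS1 was the highest of them for both miRNAs. The log2 difference of MOS from CON was -0.91 with an SE of 0.23 (adjusted p = 0.0159), and that of MOS from LOS was -1.18 (adjusted p = 0.00428). The call against CON was lost with equal library totals (adjusted p = 0.0516) and without CON1, CON2 or MOS2, and the largest adjusted p over the alternatives was 0.0746. Without MOS3 the difference was -0.79 (adjusted p = 0.0304). The ratio of miR-19b to miR-19a lay between 3.21 and 3.45 in CON, between 3.17 and 3.37 in LOS, and between 2.72 and 3.27 in MOS.

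In the miR-17 seed group, the polycistron members miR-17-5p and miR-20a had negative differences of MOS from CON and the paralogs miR-93 and miR-106b positive ones, and none of these passed the test against CON. ssc-miR-17-5p had 6568, 6304 and 6255 in CON, 6639, 7012 and 6846 in LOS, and 5886, 4788 and 3721 in MOS. The MOS libraries lay below all others, with a log2 difference of -0.43 from CON (SE 0.15, adjusted p = 0.0510) that missed the threshold. Without MOS3 it was -0.26 (adjusted p = 0.0607). The difference from LOS was -0.53 (adjusted p = 0.0210) and passed it. ssc-miR-20a_R+1 had 9539, 10115 and 9527 in CON, 10819, 11321 and 10699 in LOS, and 9644, 7596 and 6031 in MOS. Its MOS libraries overlapped those of CON through MOS1, and the difference was -0.35 from CON (SE 0.15, adjusted p = 0.109) and -0.52 from LOS (adjusted p = 0.0248). Without MOS3 the difference of miR-20a from CON was -0.18 (adjusted p = 0.193). Both calls against LOS were lost in 7 of 19 alternatives, among them equal library totals, and adjusted p reached 0.153 for miR-17-5p and 0.169 for miR-20a. The ratio of miR-20a to miR-17-5p stayed within 1.45 to 1.64 over all 9 libraries.

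age-miR-93_L+1 had 7824, 7464 and 7187 in CON, 7875, 8085 and 8069 in LOS, and 9798, 8144 and 6584 in MOS. bta-miR-106b_R+1 had 3018, 3819 and 3259 in CON, 3218, 3491 and 3215 in LOS, and 4143, 3905 and 3341 in MOS. For both, MOS overlapped CON, with log2 differences of 0.11 (SE 0.13, adjusted p = 0.581) and 0.17 (SE 0.12, adjusted p = 0.302). Without MOS3 they were 0.25 (adjusted p = 0.0607) and 0.26 (adjusted p = 0.0874). miR-106b was called higher only with equal library totals. The short form hsa-miR-106b-5p_R-1 ran from 178 to 286 over all libraries, with a difference of 0.05 from CON and 0.06 without MOS3.

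ssc-miR-20b, from the miR-106a-363 cluster, had 112, 101.3 and 129 in CON, 137, 147 and 121 in LOS, and 214.1, 181 and 46.2 in MOS. MOS1 and MOS2 lay above every other library and MOS3 below every other. Its log2 difference from CON was 0.10 with an SE of 0.48 (adjusted p = 0.907), and without MOS3 it was 0.79 (adjusted p = 0.00400).

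Of the miR-18 members, ssc-miR-18a_R+1 had 2461, 3289 and 2779 in CON, 2894, 2955 and 2900 in LOS, and 2575, 2422 and 1946 in MOS. The groups MOS and CON overlapped, with a log2 difference of -0.30 (SE 0.14, adjusted p = 0.143), or -0.18 without MOS3 (adjusted p = 0.267). ssc-miR-18b_R-3, named for miR-18b of the miR-106a-363 cluster, had 15.2, 24.1 and 4.51 in CON, 20.1, 7.63 and 18.98 in LOS, and 43.6, 51.0 and 11.9 in MOS. Its 20 bases differed from the first 20 of ssc-miR-18a_R+1 only by A20T, and which locus it came from was not tested. These values are near the minimum of 10, and the difference of 1.25 (SE 0.69) had an adjusted p of 0.201, or 1.88 with 0.0417 without MOS3.

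The miR-92 seed group showed the opposite sign to miR-19. All 6 tested members had a positive log2 difference of MOS from CON, from 0.08 to 1.94, but with all libraries only the short form of miR-92b was called. Among all 757 entries 416 were positive, and miR-92a and miR-92b each entered as more than 1 sequence. In MOS3 only that short form lay above its CON mean. ssc-miR-92a had 29081, 27917 and 12457 in MOS. MOS1 and MOS2 lay above every CON and LOS library and MOS3 below every one. Its difference from CON was 0.23 (SE 0.27, adjusted p = 0.562), and 0.63 without MOS3 (adjusted p = 0.000279). ssc-miR-363_R-1 had 382.96, 285 and 343 in CON, 324, 326 and 326 in LOS, and 611, 683 and 163 in MOS. It followed the same pattern, with a difference of 0.29 (adjusted p = 0.671), and 0.95 without MOS3 (adjusted p = 0.000820).

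bta-miR-25, from the miR-106b-25 cluster, had 12969, 13871 and 12602 in CON, 12394, 13017 and 12352 in LOS, and 16052, 15097 and 11150 in MOS. Its difference of MOS from CON was 0.08 (SE 0.13, adjusted p = 0.671), and 0.24 without MOS3 (adjusted p = 0.0378). A variant of miR-92a, mmu-miR-92a-3p_R+1, had 207, 248 and 227 in CON and 345, 280 and 157 in MOS, and MOS3 was again the lowest of the libraries. Its difference from CON was 0.13 (adjusted p = 0.748), and 0.46 without MOS3 (adjusted p = 0.0239).

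miR-92b is encoded on its own, outside the clusters. The full-length bta-miR-92b had 1938, 2008 and 2343 in CON, 1782, 2131 and 1795 in LOS, and 4112, 4069 and 2060 in MOS. MOS3 lay within the CON range, and the difference from CON was 0.64 (SE 0.24, adjusted p = 0.0777), or 0.97 without MOS3 (adjusted p = 0.000347). Against LOS the difference of 0.78 passed (adjusted p = 0.0358), although the groups overlapped, and this call was lost in 10 of 19 alternatives, with adjusted p up to 0.139.

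The short ssc-miR-92b-3p_R-2 had 39.2, 83.9 and 66.8 in CON, 55.1, 44.9 and 54.1 in LOS, and 253, 348 and 146.3 in MOS. All MOS libraries, MOS3 included, lay above all others. The difference from CON was 1.94 (SE 0.35, adjusted p = 0.00246), and that from LOS was 2.17 (adjusted p = 0.00144). Without MOS3 the difference from CON was 2.28 (adjusted p = 0.000498). The call against CON held in all 19 alternatives that keep single entries, with adjusted p from 0.000498 to 0.0148. With length variants summed by name, miR-92b-3p gave 0.70 against CON (adjusted p = 0.0635) and 0.84 against LOS (adjusted p = 0.0301). The short form made up 1.98, 4.01 and 2.77% of miR-92b-3p in CON, 2.999, 2.07 and 2.92% in LOS, and 5.80, 7.88 and 6.63% in MOS. The MOS shares lay above all others, with an exact permutation p of 0.1, the smallest that 3 against 3 can give, and 0.1 cannot pass 0.05. Length also moved with this result over the whole table. The 163 tested sequences of 20 nt or shorter had a median log2 difference of 0.88, with 79 called higher and 2 lower. The 550 longer ones had a median of -0.02, with 65 called higher and 66 lower. Without MOS3 these medians were 0.51 and -0.06, and the part of length in the miR-92b result was not tested. The other short members, ssc-miR-18b_R-3 and hsa-miR-106b-5p_R-1, had differences of 1.25 and 0.05. The shares of the length variants of miR-92a and miR-106b overlapped between CON and MOS.

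**Figure D3:**
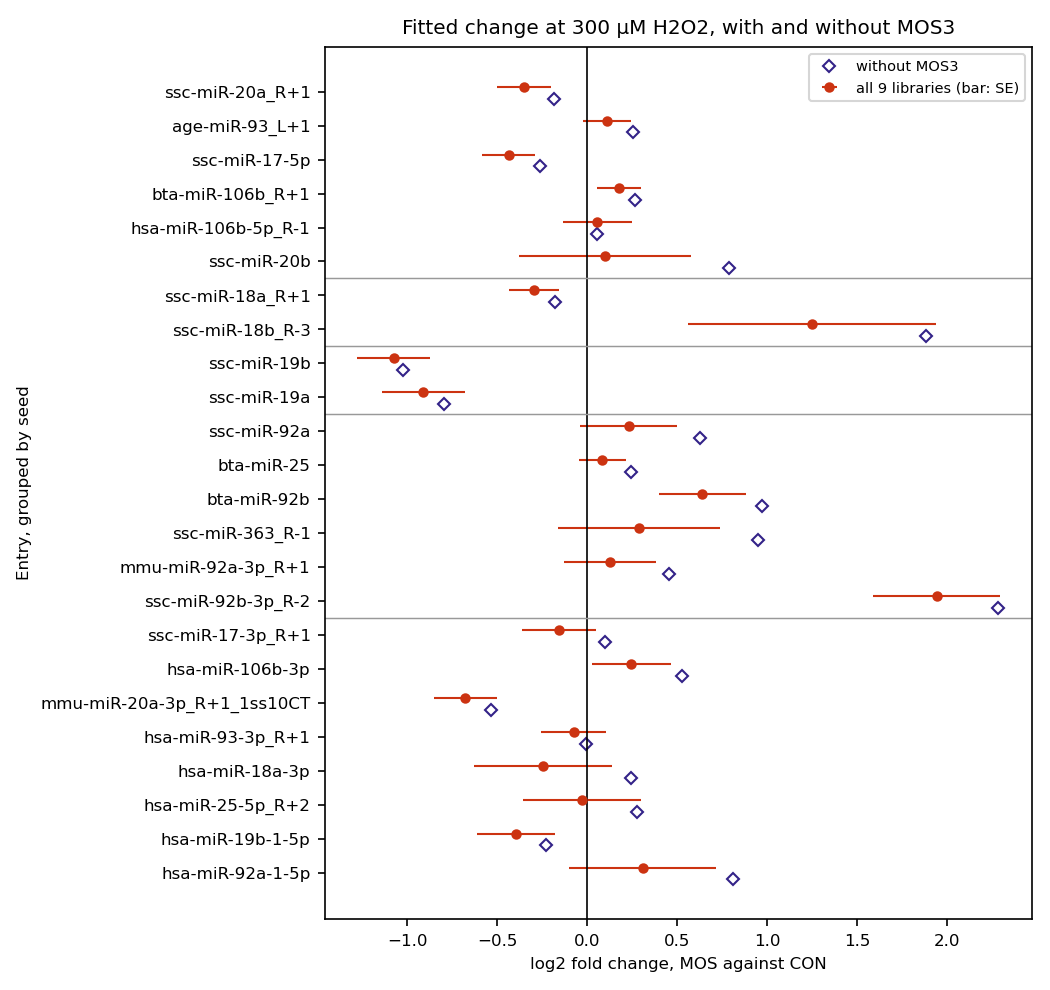
Log2 fold change of MOS against CON for the 24 tested members (rows, grouped by seed) from the limma fit over all 9 libraries (circles, bars are SE) and without MOS3 (diamonds). The miR-19 members stay near -1 in both fits, while the miR-92 members move to the right when MOS3 is left out.

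Without MOS3, 10 members were called higher and 3 lower against CON, beside 22.1% and 19.1% of the 687 entries then tested. The 3 lower calls were again miR-19b, miR-19a and the miR-20a passenger strand. The 10 higher calls held all 6 tested members with the miR-92 seed. As MOS3 was picked from these same values, where most members were low, these counts are no separate support for a rise. Against LOS, 8 were called higher and 5 lower, beside 19.7% and 19.7% of all entries. With library totals made equal, 3 members were called higher and 1 lower against CON, beside 26.2% and 4.19% of 764 entries. That scaling moved the median of all entries from 0.07 to 0.29, and the 1 lower call under it was miR-19b (adjusted p = 0.0109).

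Passenger strands were compared next, because the arms of a single hairpin come from the same precursor. mmu-miR-20a-3p_R+1_1ss10CT had 219, 189 and 189 in CON, 243, 247 and 215 in LOS, and 152, 122 and 102 in MOS. The MOS libraries lay below all others, and the difference was -0.68 from CON (SE 0.17, adjusted p = 0.0164) and -0.92 from LOS (adjusted p = 0.00365). The call against CON was lost in 4 of 19 alternatives, with adjusted p up to 0.0793. Without MOS3 the difference was -0.54 (adjusted p = 0.0149). hsa-miR-19b-1-5p, the passenger of miR-19b, had 56.9, 50.9 and 46.0 in CON, 55.8, 55.1 and 67.4 in LOS, and 42.4, 44.6 and 30.3 in MOS. Its MOS libraries also lay lowest, with a difference of -0.40 (SE 0.22, adjusted p = 0.202), or -0.23 without MOS3 (adjusted p = 0.334).

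The other passengers overlapped between MOS and CON and none was called, but with MOS3 left out some were. ssc-miR-17-3p_R+1 ran from 399 to 458 in CON and from 271 to 477 in MOS. hsa-miR-106b-3p ran from 318 to 330 in CON and from 261 to 501 in MOS, and its difference of 0.25 (adjusted p = 0.435) was 0.53 without MOS3 (adjusted p = 0.00725). hsa-miR-92a-1-5p had a difference of 0.31 from CON (adjusted p = 0.606), and 0.81 without MOS3 (adjusted p = 0.0356). Without MOS3 the sign turned for hsa-miR-18a-3p, from -0.25 to 0.24 (adjusted p = 0.408), for ssc-miR-17-3p_R+1, from -0.16 to 0.10 (adjusted p = 0.515), and for hsa-miR-25-5p_R+2, from -0.03 to 0.28 (adjusted p = 0.449). hsa-miR-93-3p_R+1 had -0.08 with all libraries (adjusted p = 0.794) and -0.005 without MOS3 (adjusted p = 0.983).

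The log2 ratio of the 5p to the 3p arm was compared for 8 hairpins in 3 comparisons, 24 in all. The miR-19b and miR-92a guides can come from either locus, while their passengers hsa-miR-19b-1-5p and hsa-miR-92a-1-5p are named for MIR19B-1 and MIR92A-1. The values of miR-17-5p are also listed under miR-106a, and whether they hold its reads was not tested. The arms in these ratios may therefore come from different precursors. For miR-19b the ratio was -6.46, -6.47 and -6.33 in CON and -5.95, -5.31 and -5.99 in MOS, with the guide further below CON than its passenger. For miR-20a it was 5.45, 5.74 and 5.66 in CON and 5.99, 5.96 and 5.89 in MOS, with the passenger further below CON. For miR-17 it was 3.90, 3.783 and 3.97 in CON and 3.71, 3.33 and 3.780 in MOS, so MOS3 lay only just below CON2. These 3 ratios did not overlap between MOS and CON, each with an exact permutation p of 0.1, which no adjustment over 24 tests can pass. The same 3 did not overlap between MOS and LOS. Other hairpins of the table were not compared, so the share lying apart among them is not known. The other 5 overlapped, and 0 of 8 were apart between LOS and CON.

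The ratio between seed groups was described in each library, since it does not depend on the library total. The sum of the miR-92 seed over that of the miR-19 seed was 5.26, 5.96 and 7.04 in CON, 5.06, 6.197 and 3.86 in LOS, and 14.1, 20.6 and 10.4 in MOS. MOS3 was the lowest MOS library here too, but it lay above every CON and LOS library. The sum of the miR-17 seed over that of the miR-19 seed was 4.15, 4.84 and 5.54 in CON, 4.48, 5.47 and 3.39 in LOS, and 8.34, 10.6 and 7.93 in MOS. The miR-92 over miR-17 ratio was 1.27, 1.23 and 1.27 in CON, 1.13, 1.13 and 1.14 in LOS, and 1.69, 1.94 and 1.31 in MOS. All LOS libraries lay below CON here, and all MOS libraries above it.

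Within the 6 guide strands of the miR-17-92 polycistron, ssc-miR-92a took 43.1, 41.5 and 43.7% in CON, 39.9, 40.9 and 38.7% in LOS, and 57.3, 61.9 and 46.7% in MOS. ssc-miR-19b took 11.3, 10.3 and 8.94% in CON, 11.1, 9.28 and 14.0% in LOS, and 5.16, 3.93 and 7.23% in MOS. In every MOS library the share of miR-92a was above, and that of miR-19b below, its CON and LOS range. Every LOS share of miR-92a lay below every CON share. Part of miR-19b and miR-92a may come from the other locus, and whether the miR-17-5p values hold reads of miR-106a was not tested. In the miR-106b-25 cluster the groups overlapped between MOS and CON, with miR-25 at 54.5 to 55.1% of its 3 guides in CON, at 52.3 to 52.9% in LOS, and at 52.9 to 55.6% in MOS. The LOS shares of miR-25 lay below those of CON. These sums and shares carry no test.

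**Figure D4:**
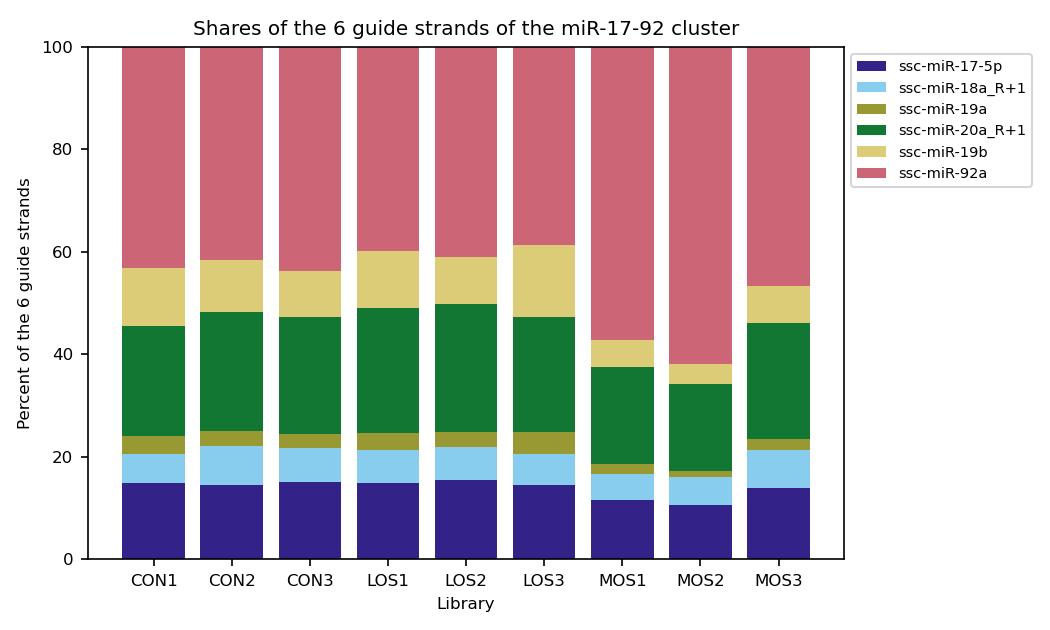
Share of each of the 6 guide strands of the miR-17-92 polycistron in their sum, in percent, for each library. The miR-92a segment is 46.7 to 61.9% in MOS and at most 43.7% in CON and LOS, and the miR-19a and miR-19b segments are narrower in MOS.

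Members that were lower in MOS tended to hold fewer G and C bases. miR-19b and miR-19a had a GC content of 39.1% and 34.8%, miR-92a 54.5% and bta-miR-92b 63.6%. Over the 21 tested members longer than 20 nt, GC content and the log2 difference of MOS from CON had a Pearson correlation of 0.68, and of 0.64 without MOS3. Over the 529 other tested sequences longer than 20 nt it was 0.20. The points share the same 9 libraries and related sequences, so these values are descriptions. For GC under 40%, the median difference was -0.79 in 4 members and -0.19 in 131 other sequences. Some members went against this: ssc-miR-363_R-1 and bta-miR-106b_R+1, both at 40.9%, had 0.29 and 0.17, and ssc-miR-17-5p at 47.8% had -0.43. For LOS against CON the correlation was -0.47 over the same 21 members and -0.07 over the 529 others. Base composition therefore tended to move with the members' differences, and its part in them was not tested.

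**Figure D5:**
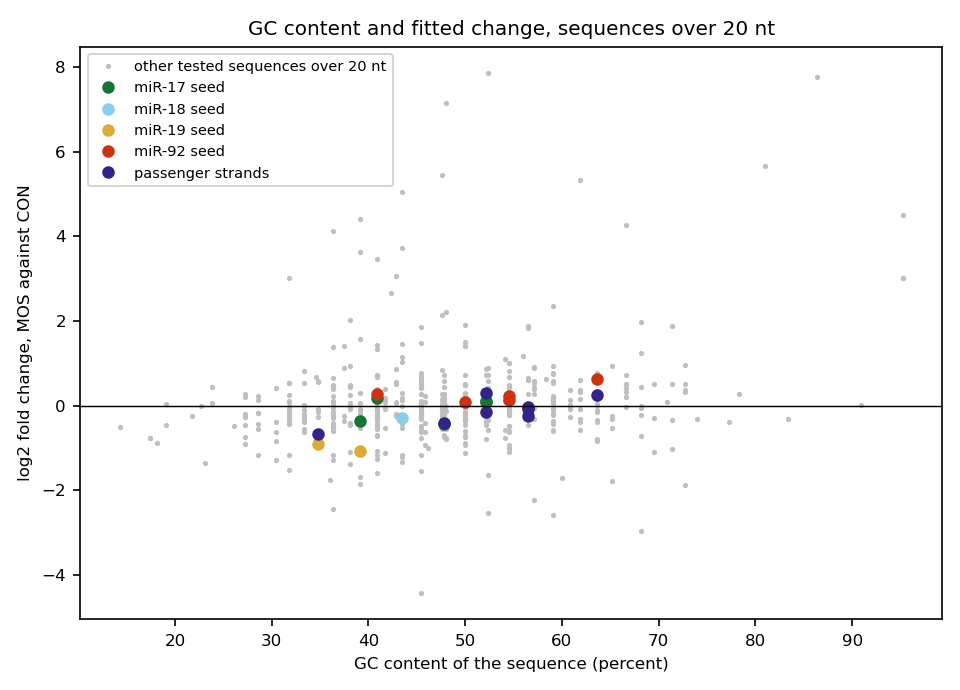
GC content in percent (x) against the log2 fold change of MOS against CON (y) for tested sequences longer than 20 nt, with members colored by seed group and others in gray. The miR-19 members sit at the low GC end near -1, and the miR-92 members lie at or above 0 from 40.9 to 63.6% GC.

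Because MYC is known in humans to drive the cluster and to repress let-7, miR-15a, miR-16, miR-22, miR-26, miR-29, miR-30, miR-34, miR-146a, miR-150, miR-195 and miR-497, these were read beside it. Of 67 tested sequences, 5 were called higher and 11 lower in MOS against CON, with a median of -0.16, and 0 higher and 1 lower in LOS against CON. All entries gave 20.2% higher and 9.11% lower in the first comparison and 2.51% and 0.396% in the second. With equal library totals the counts at 300 μM were 8 higher and 3 lower, with a median of 0.05, beside 26.2% and 4.19% of all entries, so their balance turned with the scaling. Without MOS3 the list had 5 called higher and 19 lower against CON, with a median of -0.14, beside 22.1% and 19.1% of all entries. hsa-miR-26a-1-3p, a passenger strand, had 26.5, 18.8 and 17.1 in CON and was listed at 0 in the MOS libraries. mmu-miR-34b-5p, of a p53-induced family, had a difference of -1.68 (adjusted p = 0.00374). mmu-miR-146a-5p_R+1 and mmu-miR-146a-5p_R+2, variants of an NF-κB-induced miRNA, had differences of 1.58 (adjusted p = 8.78e-05) and 1.40 (adjusted p = 0.00282).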

How the data were processed

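Small RNA from 9 PGC libraries was measured after 12 h with H2O2 at 0, 100 or 300 μM, with 3 libraries per group. The authors isolated RNA with TRIzol, used the TruSeq small-RNA kit for libraries, cleaned the reads in ACGT101-miR, and aligned those of 18 to 26 nt against miRBase with BLAST. The authors deposited a signal per entry, a normalized count. Its formula is not given in the sources used here, nor is the genome build. Matching allowed length variants and a mismatch, so 1 miRNA can appear under several names. A blank line (1) was dropped, and 0 per-sample columns were left unused.

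Groups were compared with limma 3.58.1 (R 4.3.3, trended variance) after taking log2 with a pseudocount of 1. The 9 libraries entered a single fit that had no covariate besides group. The 3 groups shared 1 spread per entry, so the SE of every comparison also held the MOS spread. Entries with at least 10 in at least 3 libraries entered (757), and p-values were adjusted by Benjamini-Hochberg over all of them per comparison. A fold change is on this log2 scale, which understates the change of low entries. Identical sequences were counted once among members. The fit was tested on simulated data with known changes. There each entry had the same spread in all groups, so the wider spread of the members in MOS was not covered. Arm ratios and length-variant shares were compared with an exact two-sided permutation test. Tables and figures used Python 3.11.15, numpy 2.4.6, pandas 2.3.3, scipy 1.17.1 and matplotlib 3.10.9.

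The members and lists were chosen with earlier results of these data known. Values per library are given for each member called in any comparison with all libraries and for the leading tested entry of each guide strand. Most passenger strands and other members are given by range or difference. Of the MYC-repressed list, the largest changes against CON are named, up to 2 each way. Alternatives were other scalings, pseudocounts of 0.5 and 10, no filter or a minimum of 50, no trend, the 6 libraries of a comparison, a replicate block, each library left out, length variants summed and 1 entry per sequence. Replicate numbers were not taken to pair the samples.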

Additional observations from a re-analysis of the deposited data

How the results depend on the processing

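In LOS against CON, 0 members were called higher and 0 lower in every alternative run, the replicate block included. With the replicate block the counts were 1 higher and 3 lower in MOS against CON and 2 higher and 5 lower in MOS against LOS, as without it. Same-numbered libraries had correlations of -0.08 to 0.18 after removal of group means, above 0.1 in 2 of 9 pairs. Other pairs had -0.25 to 0.14, above 0.1 in 1 of 18. No pairing was assumed, and these values cannot show whether same-numbered libraries shared an animal or culture. With equal library totals, 3 were higher and 1 lower in MOS against CON, and 3 were lower in MOS against LOS. With length variants summed, 0 were higher against CON and 1 against LOS. Without trend 1 was higher in MOS against LOS, and with the 6 libraries of the comparison 1 was higher and 3 were lower. Leaving out each library in turn gave 1 to 10 higher and 1 to 5 lower in MOS against CON, with 10 higher without MOS3, 5 lower without MOS1, 2 lower without CON2 and 1 lower without CON1 or MOS2. In MOS against LOS it gave 1 to 8 higher, with 8 without MOS3, and 3 to 5 lower, with 3 without any LOS library or MOS2. ssc-miR-20b changed sign in MOS against LOS, from -0.15 to 0.54 without MOS3 (adjusted p = 0.0218), and ranged from -0.55 without MOS1 to 0.54 over the libraries left out. Over 31 followed fold changes, 533 alternative values kept their side of the threshold, 32 lost a call, 21 gained one and 1 reversed. The 533 can include a change of sign without a call, as for ssc-miR-20b in MOS against LOS with equal library totals (0.09). The causes were not tested. Median-of-ratios factors left the median of all entries at 0.04 in MOS against CON, and equal totals moved it to 0.29. The planned count models were not run, because the step of the values could not be taken as 1 read, and read depth limits the low entries, such as ssc-miR-18b_R-3, most.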
